A study of Homo sapiens with 6 samples.

Results

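*MIR31HG*, the host gene of miR-31, was examined together with 4 genes that lie next to it on the short arm of chromosome 9 (band 9p21), *MTAP*, *CDKN2A*, *CDKN2B* and *CDKN2B-AS1*. These 5 genes were found by their Entrez identifiers among the 27434 rows of each deposited RNA-seq table, and each had a row of its own. *MIR31HG* was chosen by its fall in cells depleted of *HOXB-AS3*, so that fall is given here as a description and not as a test, while the other 4 genes were listed for their position. The question asked of them was whether genes of the same locus fell along with it.

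The cells were HT-29, an established human colorectal adenocarcinoma line, transfected for 48 h with 10 nM siRNA per the labels (the study's methods state a higher dose). Cells that received non-targeting siRNA (siNT) were the controls, and the other libraries came from cells that received siRNAs against the lncRNA *HOXA-AS3* (siHOXA-AS3, HOXA-AS3 KD) or the lncRNA *HOXB-AS3* (siHOXB-AS3, HOXB-AS3 KD). Each of the 3 conditions had 2 polyA-selected libraries, all from a single cell line. Nothing in the labels says whether the paired libraries came from separate cultures, so the p-values measure only the spread between these libraries, which may be technical.

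*MIR31HG* is a long noncoding RNA whose locus also carries the hairpin of miR-31, a microRNA that acts in epithelial cells. *CDKN2A* encodes p16INK4A and, from another first exon, p14ARF, and *CDKN2B* encodes p15INK4B. The INK4 proteins hold CDK4 and CDK6 inactive and so keep RB active, while ARF restrains MDM2 and thereby stabilises p53. *CDKN2B-AS1*, also called ANRIL, is a lncRNA that runs antisense through this cluster and has been linked to its repression by Polycomb proteins. *MTAP* encodes the enzyme that starts methionine salvage from the by-product of polyamine synthesis, and it is often lost together with *CDKN2A* in tumours.

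In GENCODE v29 (GRCh38), *MIR31HG* occupies chr9:21455642-21559669 on the minus strand. The microRNA hairpin (chr9:21512115-21512185) and the interferon gene *IFNE* (chr9:21480839-21482313) lie within that span on the same strand, and *IFNE* shares 0 exonic bases with *MIR31HG*, which places it in an intron. *KLHL9* begins 120.3 kb from *MIR31HG* on one side. On the other side, *MTAP* starts 242.9 kb away, *CDKN2A* 408.1 kb, *CDKN2B-AS1* 435.1 kb and *CDKN2B* 443.2 kb away. These positions are for orientation, because the submitters' processing notes name hg19.

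The sequences below show what the locus makes and how its start sites differ (RefSeq, GRCh38.p14). The mature microRNA of the locus (chr9:21512158-21512178, minus strand) is given with its seed, bases 2 to 8, in capitals.
hsa-miR-31-5p: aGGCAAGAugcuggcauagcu
The start-site regions of *MIR31HG* (chr9:21559749-21560048, minus strand) and *IFNE* (chr9:21482264-21482563, minus strand) span 250 bases before the start and 50 after it. They are shown because these were the only 2 genes tested in the window described further on whose level fell by more than 1 on the log2 scale after HOXB-AS3 KD, a choice made after their values were seen.
MIR31HG: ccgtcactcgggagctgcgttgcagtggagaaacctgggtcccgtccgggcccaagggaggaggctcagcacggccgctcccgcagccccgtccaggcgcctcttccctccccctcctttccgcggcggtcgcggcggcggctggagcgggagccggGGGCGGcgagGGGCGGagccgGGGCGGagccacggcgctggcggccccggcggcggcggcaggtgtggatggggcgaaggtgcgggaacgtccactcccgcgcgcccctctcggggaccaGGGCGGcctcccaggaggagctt
IFNE: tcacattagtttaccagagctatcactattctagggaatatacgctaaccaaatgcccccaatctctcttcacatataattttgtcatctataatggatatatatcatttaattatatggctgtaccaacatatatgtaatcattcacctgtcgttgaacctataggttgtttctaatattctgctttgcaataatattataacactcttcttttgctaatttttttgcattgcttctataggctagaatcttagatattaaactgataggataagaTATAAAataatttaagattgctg
Capitals mark GGGCGG (Sp1) or TATAAA. The *MIR31HG* window held 39 CpG dinucleotides and 77.7% GC, with more CpG than 91.3% of the 35116 RefSeq start-site windows of the same length, and 4 GGGCGG matches. The *IFNE* window held 2 CpG, 29.7% GC and 1 TATAAA match, which begins 27 bases after the start site and not before it, where a TATA box lies. On either strand, 44.95% of all windows held GGGCGG and 11.53% held TATAAA. The letters CCATAAA (CDX), TGANTCA (AP-1) and GGAATG (TEAD), searched in the same way, were in neither window and were in 2.54%, 7.71% and 14.03% of all windows.

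Library totals ran from 15998518 to 26263938 expected counts. *HOXB-AS3* itself stood at 27.04 and 29.28 FPKM (fragments scaled by transcript length and library size) in siNT, 25.59 and 27.77 in siHOXA-AS3, and 6.05 and 7.96 in siHOXB-AS3. Its log2 fold change after HOXB-AS3 KD was -1.96 (SE 0.248, adjusted p = 0.0678 by edgeR's quasi-likelihood test over 13034 genes and all 6 libraries, and 8.79e-07 without the siHOXA-AS3 pair). *HOXA-AS3* was low, at 0.38 and 0.30 FPKM in siNT and 0.13 and 0.19 in siHOXA-AS3 (log2 fold change after HOXA-AS3 KD -1.09, SE 0.403, adjusted p = 0.711, from 12 to 38 counts a library). The paired siHOXA-AS3 libraries differed from each other more than the other pairs did. The SD of the log2 difference across genes was 0.726 in siHOXA-AS3, against 0.425 in siNT and 0.371 in siHOXB-AS3. Across genes the siHOXA-AS3 difference followed GC content (Pearson r = 0.748), against r = -0.394 in siNT and 0.149 in siHOXB-AS3. The 6-library test shares its estimate of spread over the conditions, and adjusted p-values without the siHOXA-AS3 libraries are therefore given beside results of the locus that they change. All 7 intestinal epithelial markers were detected, with *CDX2* near 0 (mean 0.192 FPKM). Of the 8 fibroblast, endothelial and leukocyte markers, 7 had too few counts to test, with 3 or 4 listed at 0 in each library, and the other, *LYZ*, made up nearly all of that list's summed level of 717.91 to 1171.65 FPKM.

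The lowest *MIR31HG* levels were those of the siHOXB-AS3 pair, below every other library. It was listed at 9.86 and 10.03 FPKM in siNT, 12.14 and 12.67 in siHOXA-AS3, and 2.07 and 2.36 in siHOXB-AS3, from 525 and 326, 577 and 437, and 104 and 105 expected counts. The means were 9.95 ± 0.120, 12.4 ± 0.375 and 2.22 ± 0.205 FPKM (SD, n = 2 each). The log2 fold change after HOXB-AS3 KD was -2.12 (SE 0.205), which is 0.231 of the siNT level, and against HOXA-AS3 KD it was -2.44 (SE 0.207). Both values use the libraries that chose the gene, and no test is read from them. Across all genes, 8 of 13034 (0.0614%) passed an adjusted p of 0.05 after HOXB-AS3 KD.

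After HOXA-AS3 KD, *MIR31HG* was not lower. Both siHOXA-AS3 libraries lay above both siNT libraries, as they did for 12.5% of all genes tested. The log2 fold change was 0.33 (SE 0.192, 95% CI -0.13 to 0.78, adjusted p = 0.918 by edgeR). Leaving out siHOXA-AS3 replicate 1 gave 0.36, and leaving out replicate 2 gave 0.30. No gene passed the test in this comparison (0 of 13034, 0.0%), where DESeq2 called 49 (0.397% of the 12355 genes to which it gave an adjusted p) and 803 (6.16%) had a p below 0.05 before adjustment. The siNT libraries are shared by both comparisons.

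**Figure D1:**
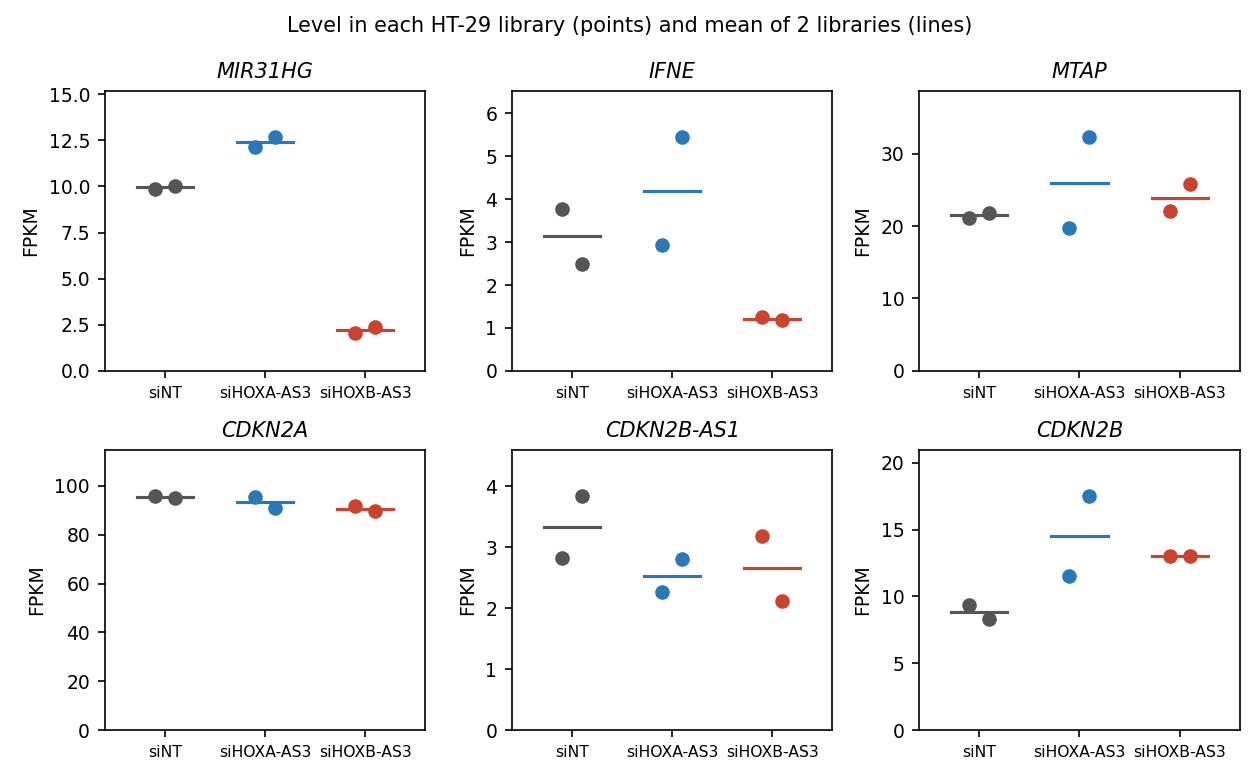
FPKM (y axis, from 0, a separate scale in each panel) of *MIR31HG*, *IFNE*, *MTAP*, *CDKN2A*, *CDKN2B-AS1* and *CDKN2B* in the 2 libraries of siNT, siHOXA-AS3 and siHOXB-AS3; points are libraries and lines are means. *MIR31HG* sits at 2.07 and 2.36 in siHOXB-AS3 against 9.86 or more in the other libraries, *IFNE* is also lowest there, and *CDKN2A* stays between 89.61 and 95.70.

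None of the other 4 genes was called lower after HOXB-AS3 KD, and their log2 fold changes ran from -0.24 to 0.61. Of the 4, 0 passed an adjusted p of 0.05 with edgeR or with DESeq2, and 1 (*CDKN2B*, which was higher) had a p below 0.05 before adjustment, a level reached by 1586 of all genes tested (12.2%). Over all genes, edgeR called 8 of 13034 (0.0614%). DESeq2 called 332 of the 11689 genes to which it gave an adjusted p (2.84%). With shares this small, 0 of 4 does not set these genes apart from other genes. The median log2 fold change of the other 4 genes was 0.09, beside -0.01 over all genes.

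*CDKN2A*, the gene of p16INK4A and p14ARF, was the most abundant of the 5 per length and nearly level across conditions. It was listed at 95.70 and 95.00 FPKM in siNT, 95.58 and 91.07 in siHOXA-AS3, and 91.94 and 89.61 in siHOXB-AS3. On the scale of the test, CPM (counts scaled to library size), its log2 fold change was -0.02 after HOXB-AS3 KD (SE 0.154, 95% CI -0.39 to 0.34, adjusted p = 0.979) and -0.03 after HOXA-AS3 KD (SE 0.154, 95% CI -0.39 to 0.33, adjusted p = 0.998, both by edgeR). The HOXB-AS3 KD value became 0.09 when the GC trend was removed. The deposited rows do not separate the transcripts of the 2 proteins.

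*CDKN2B*, the gene of p15INK4B, was higher in both knockdowns. It stood at 9.38 and 8.30 FPKM in siNT, 11.56 and 17.48 in siHOXA-AS3, and 13.03 and 13.02 in siHOXB-AS3, so that every KD library lay above both siNT libraries. After HOXB-AS3 KD, *CDKN2B* had a log2 fold change of 0.61 (SE 0.238, 95% CI 0.04 to 1.17, adjusted p = 0.366 by edgeR), and after HOXA-AS3 KD it was 0.73 (SE 0.238, 95% CI 0.16 to 1.29, adjusted p = 0.649). When the edgeR fit left out the siHOXA-AS3 pair, the HOXB-AS3 KD value was 0.60 (SE 0.120, adjusted p = 0.000967), in a fit that called 2995 of 12830 genes (23.3%). For HOXA-AS3 KD, leaving out siHOXA-AS3 replicate 1 gave 0.99 and leaving out replicate 2 gave 0.40. Each of these fits held a lone siHOXA-AS3 library, so no test is read from them. A KD pair wholly above the siNT pair was common: 30.9% of genes tested were in the HOXB-AS3 KD and 12.5% in the HOXA-AS3 KD.

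*MTAP*, the methionine salvage enzyme, was listed at 21.14 and 21.80 FPKM in siNT, 19.72 and 32.26 in siHOXA-AS3, and 22.11 and 25.77 in siHOXB-AS3. Only the siHOXB-AS3 libraries lay clear of the siNT libraries, on the higher side, as they did for 30.9% of all genes tested. Its log2 fold change was 0.20 after HOXB-AS3 KD (SE 0.251, 95% CI -0.39 to 0.80, adjusted p = 0.814 by edgeR) and 0.29 after HOXA-AS3 KD (SE 0.251, adjusted p = 0.976). The HOXA-AS3 KD value rested on a single library, being 0.60 without siHOXA-AS3 replicate 1 and -0.11 without replicate 2.

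*CDKN2B-AS1* was low in every library, at 2.82 and 3.83 FPKM in siNT, 2.26 and 2.80 in siHOXA-AS3, and 3.19 and 2.11 in siHOXB-AS3. The siHOXB-AS3 pair overlapped the siNT pair, and the siHOXA-AS3 pair lay just below it. The log2 fold change was -0.24 after HOXB-AS3 KD (SE 0.265, 95% CI -0.86 to 0.39, adjusted p = 0.794 by edgeR) and -0.46 after HOXA-AS3 KD (SE 0.268, adjusted p = 0.914), in a comparison where the KD pair lay wholly below the siNT pair for 16.1% of genes. The value after HOXB-AS3 KD was -0.07 without siNT replicate 2 and -0.05 without siHOXB-AS3 replicate 2. *CDKN2A* and *CDKN2B-AS1* share 341 exonic bases on opposite strands, and since the strand setting of the counting is not given in the sources used here, reads from that stretch cannot be assigned with certainty.

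The order of the 5 levels per length was *CDKN2A*, *MTAP*, *MIR31HG*, *CDKN2B* and *CDKN2B-AS1* in both siNT libraries, with *MIR31HG* and *CDKN2B* close together (9.86 and 10.03 against 9.38 and 8.30 FPKM). The order was the same in siHOXA-AS3 replicate 1, while in replicate 2 *MIR31HG* came below *CDKN2B* (12.67 against 17.48 FPKM). In both siHOXB-AS3 libraries *MIR31HG* also came below *CDKN2B*, and its 2.07 and 2.36 FPKM lay within the 2.11 to 3.19 of *CDKN2B-AS1* or just under it, so those neighbours in the order did not differ beyond their spread.

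*IFNE*, an epithelial type I interferon gene inside the *MIR31HG* intron, had the lowest log2 fold change after HOXB-AS3 KD of the 16 other genes tested within 2.5 Mb of *MIR31HG*, although it did not pass the 6-library test. It was listed at 3.77 and 2.49 FPKM in siNT, 2.93 and 5.44 in siHOXA-AS3, and 1.25 and 1.18 in siHOXB-AS3, from 134 and 54, 93 and 125, and 42 and 35 expected counts. Both siHOXB-AS3 libraries were below all 4 others, whereas siHOXA-AS3 and siNT overlapped. That the siHOXB-AS3 pair lay wholly below the siNT pair held for 30.9% of genes.

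The log2 fold change of *IFNE* after HOXB-AS3 KD was -1.32 (SE 0.393, 95% CI -2.26 to -0.39), or 0.400 of the siNT level. Its adjusted p was 0.244 by edgeR (unadjusted p = 0.0124). *IFNE* passed when the fit left out the siHOXA-AS3 pair (-1.33, SE 0.281, adjusted p = 0.00165 by edgeR) and when the GC trend was removed. Those fits called many genes, 2995 of 12830 (23.3%) and 1763 of 13034. *IFNE* did not pass with DESeq2, other scalings or filters, a replicate block or limma on FPKM. Its log2 fold change stayed negative over all 15 alternatives. The size was -0.99 without siNT replicate 1 and -1.57 without siNT replicate 2. Against HOXA-AS3 KD the log2 fold change was -1.73 (SE 0.393, adjusted p = 0.0893 by edgeR), in a comparison that called 204 of 13034 genes (1.57%) and none of the 16 genes of the window below, *IFNE* included. DESeq2 called *IFNE* there and no other gene of the window, in a comparison where it called 773 of all 27434 rows. After HOXA-AS3 KD alone *IFNE* had a log2 fold change of 0.41 (SE 0.371, adjusted p = 0.983 by edgeR). Leaving out siHOXA-AS3 replicate 1 gave 0.78, and leaving out replicate 2 gave -0.10.

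*IFNE* gave 25.52 and 16.56 counts per 100 *MIR31HG* counts in siNT, 16.12 and 28.60 in siHOXA-AS3, and 40.38 and 33.33 in siHOXB-AS3. The ratio was thus highest where both genes were lowest. Because *IFNE* lies in the intron on the same strand, reads of its own transcript and reads of unspliced *MIR31HG* RNA cannot be told apart in gene counts. The miR-31 hairpin was listed at 0 in all 6 libraries, with an effective length of 0, so these tables do not measure the microRNA.

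The *HOXB-AS3* siRNA pool listed by the study holds 3 duplexes. The 3 of its 6 strands whose seed (bases 2 to 8, capitals, RNA letters) has a match in the longest GENCODE v29 transcript of *MIR31HG* or *IFNE* are shown with the matching site (capitals, DNA letters).
Strand 2 of the pool: aCUUUGUCucccuuugucguu
Site in MIR31HG: gctgattgGACAAAGaatgtgtt
Strand 5 of the pool: gUCAAGGGgugaagggaaauu
Site in IFNE: aaggaagaCCCTTGAacgacatg
Strand 6 of the pool: uUUCCCUUcaccccuugacuu
Site in IFNE: accatgaaAAGGGAAcctgaaaa
Such a site for strand 2 was present in 8.86% of the 6589 genes with a longest transcript of similar length to that of *MIR31HG*. Sites for strands 5 and 6 were present in 8.56% and 17.14% of the 5209 genes of similar length to *IFNE*. Each share is for a single strand. The share of genes with a site for any of the 6 strands, which is higher, was not computed. No strand of this pool matched either transcript over its whole paired length. In the *HOXA-AS3* pool, neither the listed strands nor their complements had a seed site in either transcript. The annotated *MIR31HG* transcript searched has 745 bases and the one counted in the files 2148, so part of the counted RNA was not searched, and the part of seed matches in the lower levels was not tested.

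Beyond these genes, the files held 44 rows other than *MIR31HG* within 2.5 Mb of it. Of these, 16 had enough counts to test and 22 were at 0 in every library. The 16 rows of the type I interferon genes of the IFNA, IFNB and IFNW kinds had at most 1 count in any library, where a count of 0 allows up to 0.114 to 0.188 CPM depending on depth (counting error only). *IFNE* was therefore the only type I interferon gene of the cluster with enough reads to follow.

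No gene of the window passed the 6-library test in either knockdown (0 of 16 by edgeR and 0 of 16 by DESeq2). Over all genes edgeR called 0.0614% in the HOXB-AS3 KD and 0.0% in the HOXA-AS3 KD, and DESeq2 2.84% and 0.397%. With shares this small, 0 of 16 does not set the window apart from other genes. Before adjustment 2 (*IFNE*, lower, and *CDKN2B*, higher) had a p below 0.05 in the HOXB-AS3 KD, beside 12.2% of all genes. In the HOXA-AS3 KD 1 did (*CDKN2B*), beside 6.16%. After HOXB-AS3 KD, 9 of the 16 log2 fold changes were positive and 7 negative. The siHOXB-AS3 pair lay wholly below the siNT pair for 5 genes and wholly above it for 7, out of 16, near the 30.9% found for each direction over all genes. The median log2 fold change of the window was 0.08 in the HOXB-AS3 KD and 0.03 in the HOXA-AS3 KD, beside -0.01 and 0.01 over all genes.

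On the side of *KLHL9*, values after HOXB-AS3 KD went both ways. *KLHL9*, a substrate adaptor of a CUL3 ubiquitin ligase and the expressed gene nearest to *MIR31HG* outside its span, gave 52.4 and 43.6 CPM in siNT, 39.4 and 58.5 in siHOXA-AS3, and 65.5 and 67.6 in siHOXB-AS3. Its log2 fold change after HOXB-AS3 KD was 0.47 (SE 0.236, adjusted p = 0.502 by edgeR). *MLLT3*, a chromatin reader of the super elongation complex, had 0.49 (SE 0.230, adjusted p = 0.475), and *ACER2*, an alkaline ceramidase, 0.44 (SE 0.201, adjusted p = 0.459). *HAUS6*, a subunit of the augmin complex of the spindle, had -0.45 (SE 0.256, adjusted p = 0.554), and *FOCAD*, a focal adhesion protein gene, -0.34 (SE 0.179, adjusted p = 0.518). *RPS6*, of the small ribosomal subunit, *RRAGA*, a GTPase of amino acid sensing, *DENND4C*, an exchange factor for RAB10, and *PLIN2*, a lipid droplet coat protein, lay between -0.17 and 0.27. Without the siHOXA-AS3 pair in the fit, 6 of the 16 passed, 4 higher (*CDKN2B*, *RRAGA*, *MLLT3*, *KLHL9*) and 2 lower (*IFNE*, *HAUS6*), in the fit that called 23.3% of all genes.

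**Figure D2:**
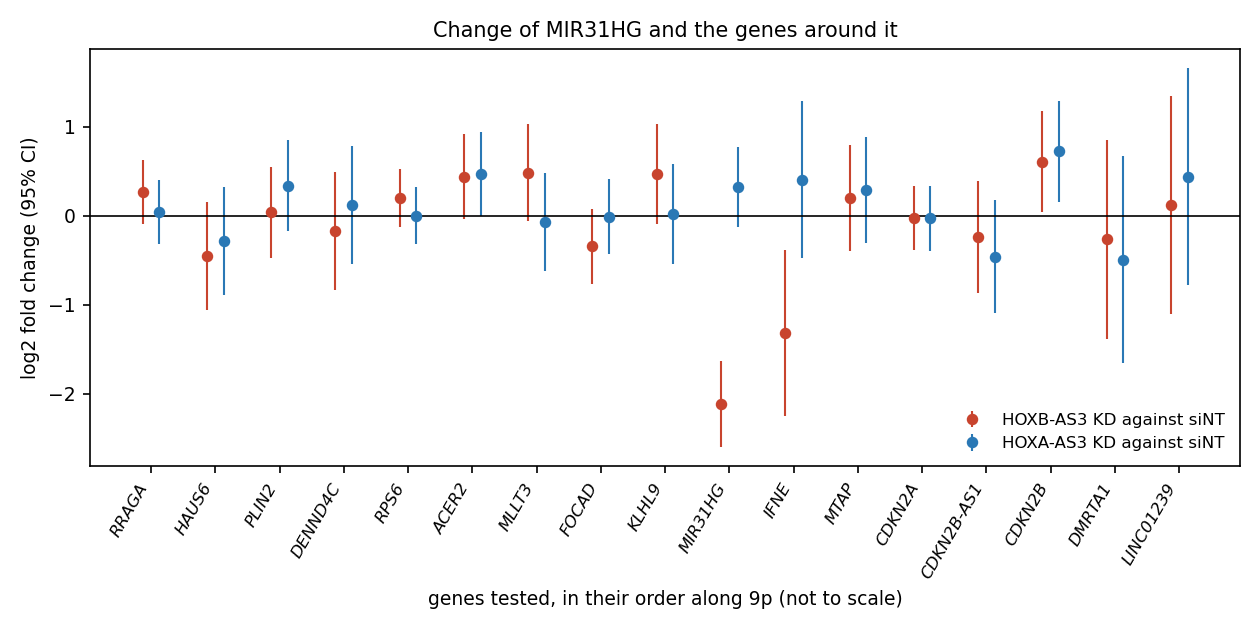
Log2 fold change against siNT (y axis, bars are 95% confidence intervals from the 6-library edgeR fit) of *MIR31HG* and the 16 genes tested within 2.5 Mb of it, in their order along the chromosome (x axis, not to scale), for HOXB-AS3 KD in red and HOXA-AS3 KD in blue. After HOXB-AS3 KD, *MIR31HG* (-2.12) and *IFNE* (-1.32) lie apart from the other 15 genes, which lie between -0.45 and 0.61.

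The INK4, CDK4/6 and RB list, which takes in the proteins that p15 and p16 act on, had 21 of 22 genes tested (*CCND2* was at 0 counts). In the HOXB-AS3 KD 0 were called by edgeR with 6 libraries, beside 0.0614% of all genes, and 1 by DESeq2 (*CDK6*), beside 2.84%. Without the siHOXA-AS3 pair edgeR called 7 (5 higher and 2 lower), beside 23.3%. In the HOXA-AS3 KD 0 were called by edgeR and 0 by DESeq2, beside 0.0% and 0.397%. After HOXB-AS3 KD, 11 of the 21 were positive and 10 negative, 5 had an unadjusted p below 0.05 (12.2% of all genes did), and the median log2 fold change was 0.10 beside -0.01 over all genes. The highest values belonged to *CDK6*, a kinase that p15 and p16 inhibit, and to *E2F5*, an E2F factor that binds the RB relatives. *CDK6* was listed at 10.64 and 9.27 FPKM in siNT, 8.55 and 10.33 in siHOXA-AS3, and 16.75 and 17.36 in siHOXB-AS3. Its log2 fold change was 0.82 (SE 0.172, adjusted p = 0.133 by edgeR and 0.0158 by DESeq2), and that of *E2F5* was 0.74 (SE 0.231, adjusted p = 0.267). The lowest were the inhibitors *CDKN1C* (-0.94, SE 0.356, adjusted p = 0.346) and *CDKN2C* (-0.60, SE 0.274, adjusted p = 0.459). After HOXA-AS3 KD 3 of the 21 had an unadjusted p below 0.05, beside 6.16% of all genes.

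The 7 genes of ARF, MDM2 and p53 were all tested. In the HOXB-AS3 KD 0 were called by edgeR with 6 libraries and 0 by DESeq2, beside 0.0614% and 2.84% of all genes. An unadjusted p below 0.05 was found for 1, beside 12.2%. Without the siHOXA-AS3 pair edgeR called 2 (*MDM2* lower and *NPM1* higher), beside 23.3%. *MDM2*, the ligase that ARF restrains, was lowest after HOXB-AS3 KD at -0.70 (SE 0.259, adjusted p = 0.333 by edgeR), with 10.98 and 11.93 FPKM against 20.69 and 17.81 in siNT. *USP7*, a deubiquitinase of MDM2, had -0.25. *NPM1*, a nucleolar partner of ARF, was highest at 0.30 (SE 0.212, adjusted p = 0.646), followed by *HUWE1*, a ligase bound by ARF, at 0.03, which turned to -0.02 with library totals or with FPKM.

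The 15 genes of methionine salvage and polyamine synthesis were all tested. In the HOXB-AS3 KD 0 were called by edgeR with 6 libraries, beside 0.0614% of all genes, and 2 had an unadjusted p below 0.05, beside 12.2%. DESeq2 called 1 (*MAT2A*), beside 2.84%, and edgeR without the siHOXA-AS3 pair called 7 (6 higher and 1 lower), beside 23.3%. After HOXB-AS3 KD 11 were positive and 4 negative, with a median of 0.23 beside -0.01 over all genes. *SRM*, spermidine synthase, which makes the substrate of MTAP as a by-product, had 0.60 (SE 0.217, adjusted p = 0.321 by edgeR), and *ENOPH1*, a later enzyme of the salvage pathway, had 0.55 (SE 0.259, adjusted p = 0.469). *MAT2A*, which makes S-adenosylmethionine, was lowest, at 188.81 and 186.13 FPKM in siNT, 207.39 and 196.86 in siHOXA-AS3, and 107.88 and 105.82 in siHOXB-AS3. Its log2 fold change was -0.76 (SE 0.134, adjusted p = 0.101 by edgeR and 0.0149 by DESeq2), and against HOXA-AS3 KD it passed the test at -0.88 (SE 0.135, adjusted p = 0.0391). *MAT2B*, its regulatory subunit, had -0.13 (SE 0.236).

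The 10 Polycomb genes known at the INK4 locus were all tested. In the HOXB-AS3 KD 0 were called by edgeR with 6 libraries (0.0614% of all genes were), 0 by DESeq2 (2.84%), and 0 had an unadjusted p below 0.05 (12.2%). Their log2 fold changes by edgeR ran from -0.40 to 0.35. *EED*, a core subunit of PRC2, was highest at 0.35 and *RING1*, a ligase of PRC1, had 0.23. *BMI1* and *PHC2*, both of PRC1, share their rows with other genes, and those rows had -0.40 and -0.32. Both rows were called lower by edgeR without the siHOXA-AS3 pair, in the fit that called 23.3% of all genes. The *BMI1* row depended on the scale, with -0.90 (adjusted p = 0.232) by limma on FPKM, in which the row's mean was 95.7 in siNT and 51.1 in siHOXB-AS3. The length given to this joined row, by which FPKM is scaled, ran from 1802 to 2712 bases over the libraries.

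Of the 16 described targets of miR-31-5p, 12 were tested. In the HOXB-AS3 KD 0 were called by edgeR with 6 libraries, beside 0.0614% of all genes, and 2 had an unadjusted p below 0.05, beside 12.2%. DESeq2 called 1 (*LATS2*, higher), beside 2.84%, and edgeR without the siHOXA-AS3 pair called 4 (2 higher and 2 lower), beside 23.3%. Their median log2 fold change was 0.06 in the HOXB-AS3 KD and 0.17 in the HOXA-AS3 KD, beside -0.01 and 0.01 over all genes. *LATS2*, a kinase of the Hippo pathway, was the highest, at 3.47 and 3.64 FPKM in siNT, 4.93 and 4.04 in siHOXA-AS3, and 6.78 and 8.09 in siHOXB-AS3. Its log2 fold change after HOXB-AS3 KD was 1.11 (SE 0.205, adjusted p = 0.112 by edgeR and 0.00143 by DESeq2). *STK40*, a kinase-like protein, had 0.44 (SE 0.266), *PPP2R2A*, a regulatory subunit of the phosphatase PP2A, -0.36 (SE 0.257) and *RHOBTB1* -0.64 (SE 0.246, adjusted p = 0.350).

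**Figure D3:**
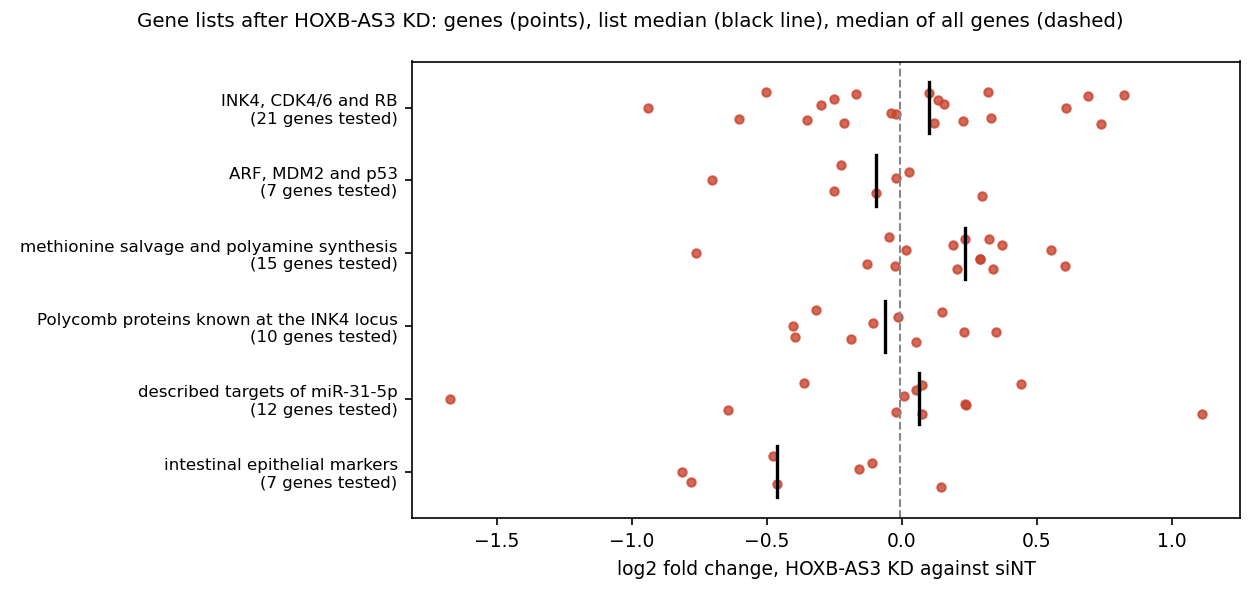
Log2 fold change after HOXB-AS3 KD (x axis) of the tested genes of 6 lists (rows; points are genes, spread vertically for legibility), with the list median (black line) and the median of all 13034 genes (dashed line, -0.01). List medians run from -0.46 for the intestinal epithelial markers to 0.23 for methionine salvage and polyamine synthesis. No gene shown passed the 6-library edgeR test, which called 0.0614% of all genes.

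Of the 7 intestinal epithelial markers, 6 had a negative log2 fold change after HOXB-AS3 KD, beside 50.7% of all genes, with a median of -0.46. The siHOXB-AS3 pair lay wholly below the siNT pair for 5 of them, beside 30.9% of all genes. By edgeR with 6 libraries 0 were called and 2 had an unadjusted p below 0.05, beside 0.0614% and 12.2% of all genes. DESeq2 called 1 (*EPCAM*, lower), beside 2.84%. Without the siHOXA-AS3 pair edgeR called 3, beside 23.3%, all lower (*EPCAM*, *LGALS4* and *CDH1*, the last named after its values were seen). *EPCAM*, an epithelial adhesion protein, was listed at 288.71 and 278.06 FPKM in siNT, 270.27 and 296.12 in siHOXA-AS3, and 158.53 and 153.30 in siHOXB-AS3 (log2 fold change -0.81, SE 0.140, adjusted p = 0.101 by edgeR and 0.00963 by DESeq2). Against HOXA-AS3 KD it was -0.82 (SE 0.140), which passed the test (adjusted p = 0.0471 by edgeR). *LGALS4*, a gut galectin, had -0.48 (SE 0.242), *KRT20*, a keratin of differentiated gut epithelium, -0.11 (SE 0.156) and *KRT18*, a keratin of simple epithelia, 0.14 (SE 0.232). The list's summed level was 4023.88 and 4264.64 FPKM in siNT, 5104.39 and 3502.15 in siHOXA-AS3, and 3717.36 and 3697.27 in siHOXB-AS3. *LYZ* had -0.23 (SE 0.144, adjusted p = 0.583). The part of these markers in the fall of *MIR31HG* was not tested, and fewer cells of a kind and less RNA per cell cannot be told apart in bulk libraries.

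The genes most like *MIR31HG* over the 6 libraries, among 10959 others with a mean of at least 1 FPKM, were *M6PR*, *PDE9A* and *FBXO32* (Pearson r of log2 CPM 0.997 each) and *SPTBN1* and *NCK2* (0.996 each). The 6 points come from 3 conditions and the same libraries, so these values only describe a shared low level in siHOXB-AS3. Because these genes were picked by their likeness to *MIR31HG* in the same libraries, no test is read from their falls. *M6PR*, a receptor that carries lysosomal enzymes, stood at 58.4 and 56.7 CPM in siNT and 59.7 and 63.2 in siHOXA-AS3. In siHOXB-AS3 *M6PR* stood at 21.4 and 23.4 CPM (log2 fold change after HOXB-AS3 KD -1.36, SE 0.176). *FBXO32*, an F-box protein, had -0.91 (SE 0.178), *NCK2*, a signalling adaptor, -0.85 (SE 0.192), *PDE9A*, a cyclic GMP phosphodiesterase, -0.77 (SE 0.178) and *SPTBN1*, a spectrin, -0.21 (SE 0.132). *IFNE* ranked 388 in likeness, with r = 0.912. It rested on 35 to 134 counts a library, where counting error lowers r. The size of a change does not enter r either, since *SPTBN1* had 0.996 with only -0.21. The rank therefore does not show that genes elsewhere followed *MIR31HG* more closely than the gene inside its intron.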

How the data were processed

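Gene-level RNA-seq tables of 6 HT-29 libraries were used, 2 for each of siNT, siHOXA-AS3 and siHOXB-AS3, grouped by the labels. Libraries had been made with the Lexogen SENSE mRNA kit. The authors quantified RefSeq genes with RSEM and deposited expected counts (not normalized), TPM and FPKM, with each row's length and effective length among the other columns; the submitters' notes name hg19, while for the aligner and the strand setting nothing is stated in those sources. Of 27434 rows, 26052 had a gene symbol. Rows that join several genes held 5.97% to 6.56% of counts. Libraries held 15998518 to 26263938 expected counts.

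Expected counts were rounded and tested in R 4.3.3 with edgeR 4.0.16 (filterByExpr with a minimum count of 10, TMM, glmQLFit over all 6 libraries, Benjamini-Hochberg over 13034 genes, threshold 0.05). SE is the absolute log2 fold change over the square root of F. An exact permutation of 2 against 2 libraries cannot go below p = 0.333 and was not used. The fitting was checked on simulated counts. Alternatives used DESeq2 1.42.0, limma 3.58.1 on log2(FPKM + 0.1), other scalings and filters, a replicate block, a GC correction, fewer libraries and other windows. FPKM is quoted for levels because it is scaled by length; TPM was not tested. No pair of libraries was identical.

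The genes, lists and tests were chosen with earlier results of these data known. Named are the 5 genes and the targeted lncRNAs, window genes with a mean of at least 1 FPKM, the 2 highest and 2 lowest expressed genes of each list after HOXB-AS3 KD with any called, and the 5 genes most like *MIR31HG*. Positions come from GENCODE v29, start-site and microRNA sequences from RefSeq (GRCh38.p14), and siRNAs from the study's oligonucleotide table. For the sequence search, a gene was of similar length if its longest transcript was within 20% of the length searched.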

Additional observations from a re-analysis of the deposited data

How the results depend on the processing

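The number of genes called depended strongly on the fit. For HOXB-AS3 KD the count was 8 with all 6 libraries and 332 with DESeq2, 265 with no filter on low counts, 2995 with only the conditions compared and 1763 with the GC trend removed. For HOXA-AS3 KD it was 0, and became 49, 24, 0 and 510 in those fits and 1 with limma on FPKM. For HOXB-AS3 KD against HOXA-AS3 KD it was 204, and became 773, 706, 2 and 3368, and 93 with limma. Leaving out each library in turn gave 0 to 3035, 0 to 4031 and 0 to 5027 calls, the high counts arising without siHOXA-AS3 replicate 1 or 2. Without siNT replicate 1 the counts were 0, 0 and 6, without siNT replicate 2 they were 1, 1 and 16, and without either siHOXB-AS3 library all were 0 by edgeR, with 717 and 581 genes at a p below 0.05 before adjustment for HOXB-AS3 KD. A lone library was assumed to vary like the other conditions.

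With a replicate block the counts were 0, 0 and 10. Same-numbered libraries did not deviate together (r = -0.347, -0.139 and 0.15 between conditions), so the numbers were not taken to pair the samples. A crossed pairing of siNT, added after seeing the data, gave 225, 14 and 758.

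The log2 fold change of *MIR31HG* for HOXB-AS3 KD stayed between -2.22 and -2.02 under all 15 alternatives. The median of the other 4 genes stayed between 0.04 and 0.14. The window median for HOXB-AS3 KD stayed between -0.02 and 0.15, and for HOXA-AS3 KD it ranged from -0.091 to 0.244 when libraries were left out, the latter without siHOXA-AS3 replicate 1.

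The reversals among the genes named were these. When libraries were left out, *MTAP* ranged from -0.109 to 0.602 for HOXA-AS3 KD and from -0.395 to 0.314 between the knockdowns, *CDKN2A* from -0.065 to 0.01 and from -0.032 to 0.044, *CDKN2B* between the knockdowns from -0.386 to 0.208, and *IFNE* for HOXA-AS3 KD from -0.104 to 0.782. The low *MTAP* and *IFNE* values for HOXA-AS3 KD were those without siHOXA-AS3 replicate 2. For HOXB-AS3 KD *PLIN2* ranged from -0.068 to 0.153 and *HOXA-AS3* from -0.326 to 0.023. With the GC trend removed *CDKN2A* became 0.089 (HOXB-AS3 KD) and 0.054 (HOXA-AS3 KD). Between the knockdowns *CDKN2A*, 0.007 with all libraries, was -0.006 with RLE size factors, -0.026 with library totals, -0.011 with no filter, -0.021 with a mean FPKM of at least 1, -0.003 with only the conditions compared and -0.04 with limma. For HOXB-AS3 KD *PLIN2* became -0.006 with library totals and -0.005 with limma, and *HUWE1* -0.022 and -0.021. The cause of these changes was not tested.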
